A study of Mus musculus with 24 samples.

Results

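The genes described here encode the transcriptional coactivators YAP (Yap1) and TAZ (Wwtr1), DNA-binding partners of the TEAD family (Tead1, Tead4), regulators of the pathway (Lats2, Ajuba, Amotl2) and target genes commonly used as readouts of it (Ankrd1, Cyr61, Ctgf). They were taken by symbol, 10 of the 52997 symbols in the count table, and each was followed through every library of the series. All 10 passed the filter on low counts, which left 16263 genes for testing. Cyr61 and Ctgf are now named Ccn1 and Ccn2. In GENCODE vM21 on GRCm38 the 10 genes are protein coding and lie on different chromosomes or far apart: Yap1 at chr9:7931999-8004596, Wwtr1 at chr3:57455649-57575910, Tead1 at chr7:112679318-112906807, Tead4 at chr6:128224288-128300823 and Lats2 at chr14:57689662-57758388. Ajuba is at chr14:54567472-54577558, Amotl2 at chr9:102716672-102733418, Ankrd1 at chr19:36111961-36120099, Cyr61 at chr3:145646976-145649981 and Ctgf at chr10:24595442-24598683.

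In the Hippo pathway, a kinase cascade that ends in LATS1 and LATS2 phosphorylates YAP and TAZ and keeps them out of the nucleus. Stretch, a stiff substrate, cell spreading and loss of neighbours release them, and in the nucleus they bind TEAD proteins on DNA and switch on genes such as Ankrd1, Cyr61 and Ctgf. YAP and TAZ act mainly through where the protein is in the cell, which RNA does not show. In muscle they are known for their part in the proliferation of activated satellite cells, the stem cells of muscle, and in endothelium for the response to shear stress and for vessel sprouting.

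RNA was sequenced from cells that were sorted from hindlimb muscle. The mice were C57BL/6 and 8 weeks old, with no transgene or mutant allele named in the labels. Muscle was either uninjured or had received cardiotoxin, a venom toxin that destroys muscle fibers, 1 day earlier. The 4 sorted populations were CD31+ cells (endothelial), CD45+ cells (hematopoietic, a mixture of leukocyte types), mesenchymal stromal cells (MSC, gated as negative for CD45 and CD31 and positive for Sca1 and PDGFRa) and satellite cells (MuSC, gated as negative for CD45, CD31 and Sca1 and positive for Vcam1). Each of the 8 groups had 3 libraries from 1000 cells each, which the series calls biological replicates, and a p-value here weighs a difference against their spread alone. No group holds muscle fibers.

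Total counts ran from 2301202 to 7649841 per library, so 1 count was worth 0.130 to 0.339 CPM (counts scaled to the size of the library). The summed level of each population's own marker list was highest in that population, and every gene of the list had counts there. Within MSC the stromal sum was 58289 to 78959 CPM uninjured and 18478 to 23565 CPM injured, and its part in the MSC results below was not tested. Other lists also had counts: the stromal list reached 2158 to 3224 CPM in CD31+ cells, where 5 to 8 of its 8 genes had counts in a library. That list includes Ly6a, which encodes Sca1, and the CD31+ gate is not given as negative for Sca1. The part of each gene or of other cells in this sum was not tested. In MuSC the stromal sum was 1497 to 1720 CPM uninjured and 451 to 1029 CPM injured, and the smooth muscle and pericyte sum 1146 to 1961 CPM uninjured and 495 to 981 CPM injured, so both were lower in the injured MuSC libraries. Most of the smooth muscle and pericyte sum in uninjured MuSC came from Acta2 (914 ± 382 CPM, SD, n = 3) and Notch3 (587 ± 37.8), while Myh11, which defines smooth muscle, was at 0.455 ± 0.404 CPM there. Among injured CD31+ libraries the leukocyte sum ran from 9.52 CPM to 353 CPM, the latter in replicate 1.

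The promoters of Ankrd1 and Cyr61, the 2 members with the highest fold changes that passed, and of Amotl2, a member that fell in MuSC, are shown because all 3 carry the sequence that TEAD proteins recognise. The letters are from RefSeq on GRCm38.p6, from 250 bases before to 50 bases after a RefSeq start site, and run 5′ to 3′ on the strand of the gene. The whole Amotl2 window lies inside the GENCODE span of Amotl2 given above. Capitals mark the TEAD core CATTCC, or GGAATG where it lies on the other strand. The Ankrd1 promoter is at chr19:36119795-36120094 on the minus strand, that of Cyr61 at chr3:145649936-145650235 on the minus strand and that of Amotl2 at chr9:102717554-102717853 on the plus strand.
Ankrd1: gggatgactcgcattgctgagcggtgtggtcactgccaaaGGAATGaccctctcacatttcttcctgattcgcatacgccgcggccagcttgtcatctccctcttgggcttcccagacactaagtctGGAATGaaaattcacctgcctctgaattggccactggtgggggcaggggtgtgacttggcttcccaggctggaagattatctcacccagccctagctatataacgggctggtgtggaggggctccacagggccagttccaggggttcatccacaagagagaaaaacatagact
Cyr61: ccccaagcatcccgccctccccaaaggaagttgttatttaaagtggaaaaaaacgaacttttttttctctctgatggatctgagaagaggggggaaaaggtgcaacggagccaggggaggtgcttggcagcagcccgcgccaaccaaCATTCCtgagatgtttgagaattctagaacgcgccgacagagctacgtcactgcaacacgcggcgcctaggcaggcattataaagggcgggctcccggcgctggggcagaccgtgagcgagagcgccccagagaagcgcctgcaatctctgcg
Amotl2: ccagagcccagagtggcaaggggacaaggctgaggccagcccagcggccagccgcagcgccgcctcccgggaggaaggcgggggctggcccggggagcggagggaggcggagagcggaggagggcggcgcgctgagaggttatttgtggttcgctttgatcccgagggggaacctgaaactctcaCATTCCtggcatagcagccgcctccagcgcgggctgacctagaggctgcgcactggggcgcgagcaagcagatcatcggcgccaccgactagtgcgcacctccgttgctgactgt
Ankrd1 held 2 matches, at 210 to 205 and at 123 to 118 bases before the start, Cyr61 held 1 at 103 to 98 bases before it, and Amotl2 held 1 at 65 to 60 bases before it.

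Of the 10 genes, 7 had an entry among the RefSeq promoters, and Tead1, Tead4 and Ctgf did not. The 7 genes had 9 promoter windows, and 8 of these held the TEAD core on either strand, against 14.7% of the 32851 promoters of the same length. The 2 windows of Wwtr1 overlap and hold the same match, and the window without a match was 1 of the 2 of Lats2. Both Lats2 windows lie inside the GENCODE span of Lats2. Ajuba held 2 matches and Yap1 held 1. The letters of the AP-1 motif (TGANTCA, either strand), which 7.81% of all promoters held, and the CArG box bound by SRF, which 1.63% held, were in none of the 9. These matches describe the letters only, in genes chosen for their place in the pathway.

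One day after injury, Cyr61 was higher by a fitted 5.75-fold in CD31+ cells, 3.14-fold in MSC and 6.21-fold in MuSC, Ankrd1 rose in CD31+ cells and MuSC, and Ctgf rose in MSC and MuSC. Among the upstream genes, Tead1 rose in MSC, and Lats2 and Amotl2 fell in MuSC. The coactivator transcript Yap1 passed the test in none of the 4 populations. In all, 2 of 10 members passed in CD31+ cells, both upward, against 23.4% of all genes tested (either direction), and 3 of 10 passed in MSC, all upward, against 41.9%. In MuSC 3 rose and 2 fell, against 38.8% of all genes, and in CD45+ cells 1 rose, against 34.5%. Over all genes, 14.1% rose and 9.3% fell in CD31+ cells, 16% and 18.5% in CD45+ cells, 18.3% and 23.6% in MSC, and 21.4% and 17.5% in MuSC. The share of members that passed was below that of all genes in 3 populations and above it in MuSC (5 of 10). With 10 genes these shares are coarse, and the counts moved with the processing, as given below. No difference between the members and all genes is read from them. The median log2 fold change of the 10 genes was 0.12 in CD31+ cells, -0.42 in CD45+ cells, 0.59 in MSC and 0.15 in MuSC, beside medians over all genes of -0.04, -0.12, -0.22 and -0.04.

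**Figure D1:**
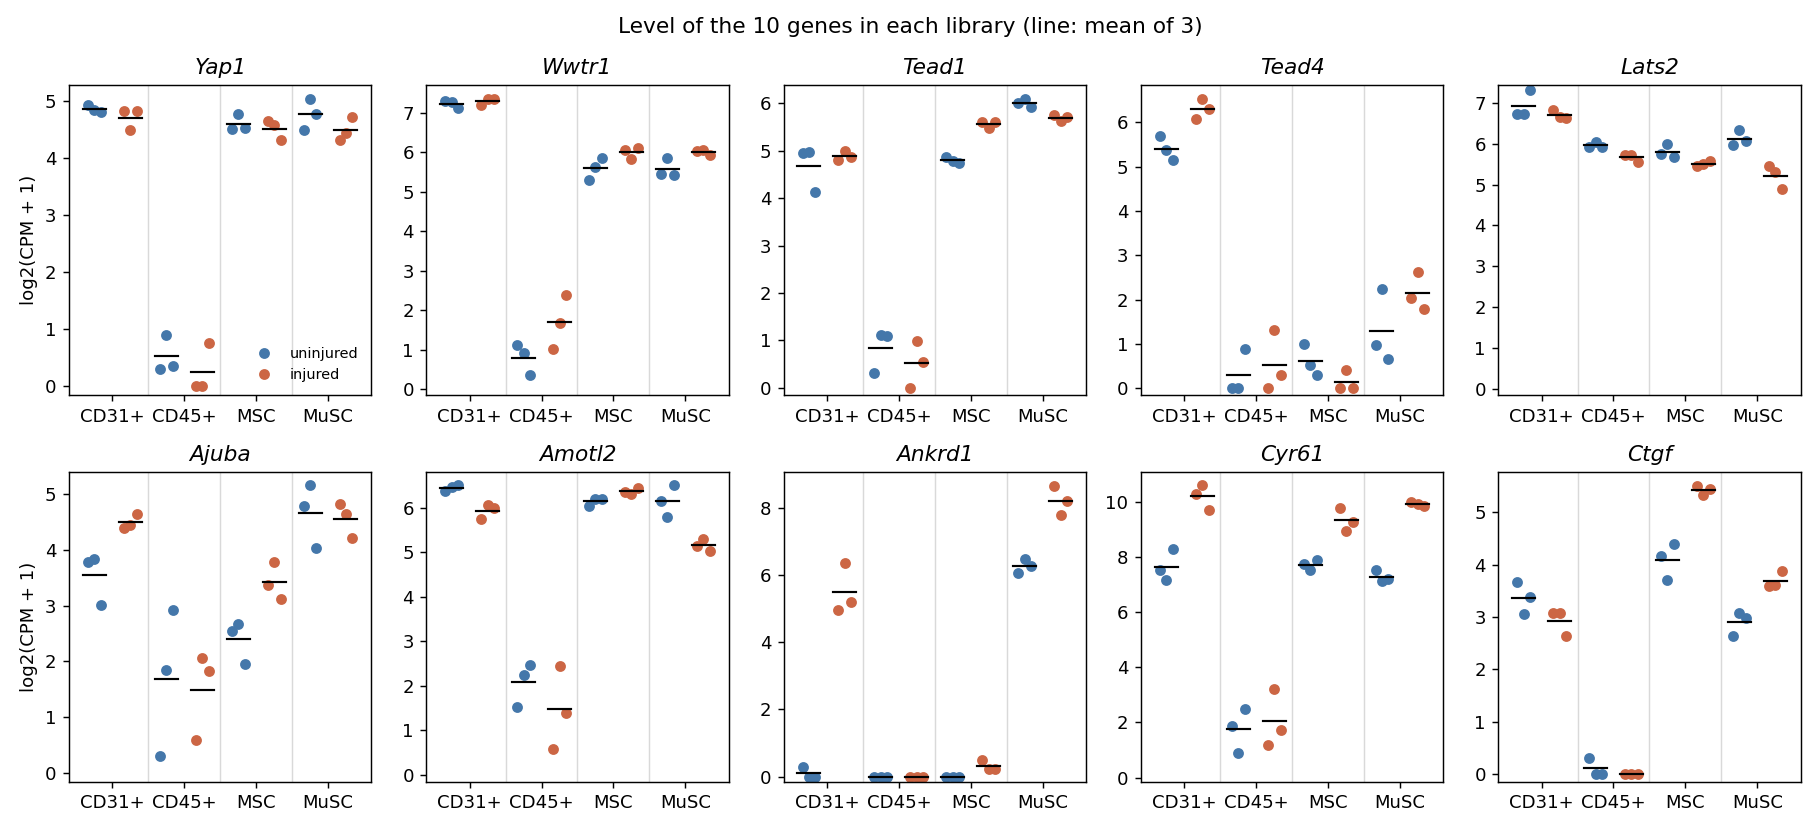
Levels of the 10 genes as log2(CPM + 1) in each library, with uninjured (blue) and injured (orange) libraries of the 4 populations side by side and a line at the mean of each 3. Cyr61 is higher in all 9 injured libraries of CD31+ cells, MSC and MuSC than in their uninjured libraries, while Yap1 overlaps between conditions in each population.

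**Figure D2:**
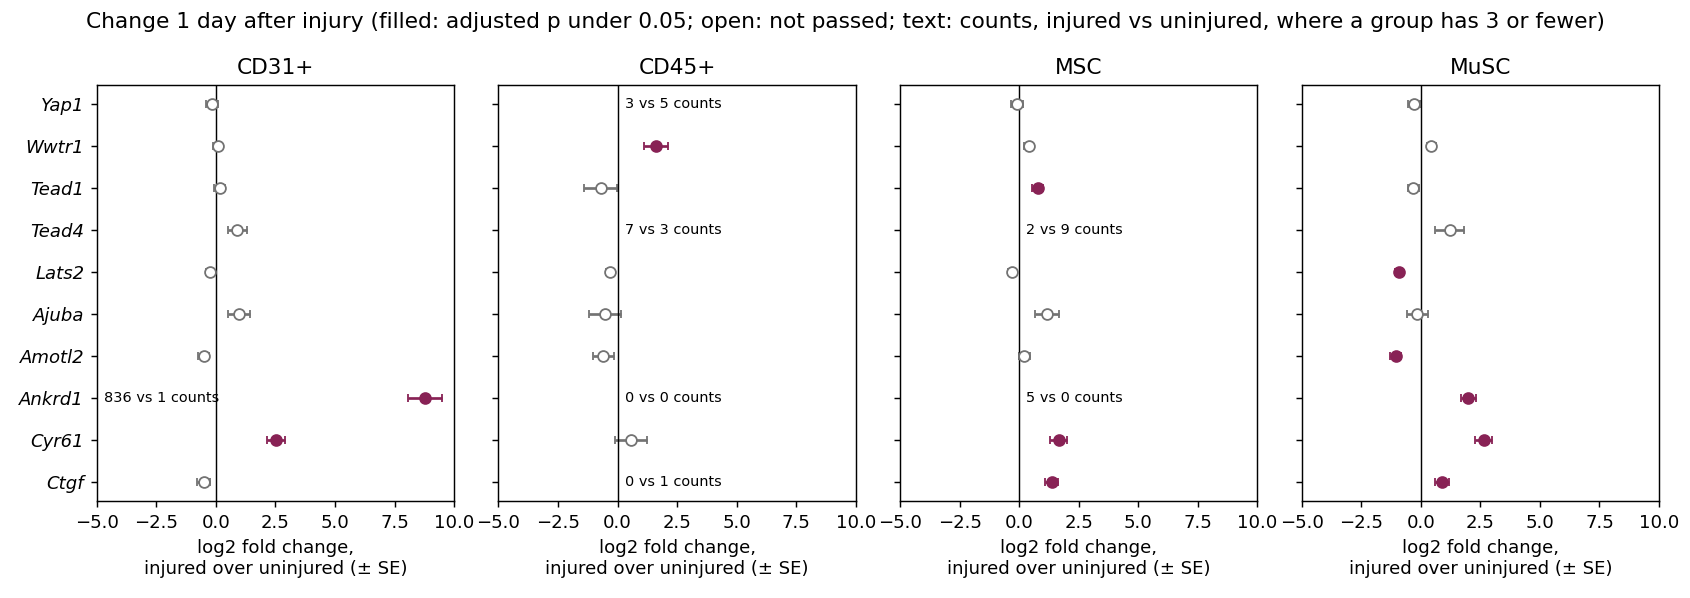
Log2 fold change of each gene 1 day after injury, ± SE, in the 4 populations, from edgeR's quasi-likelihood test; filled points passed at an adjusted p below 0.05, and where a group has 3 or fewer counts the counts are written out. The CD31+ point of Ankrd1 rests on 836 counts against 1, and its position depends on the prior count of the fit.

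Yap1 encodes the coactivator YAP. In CD31+ cells it was at 29.3, 27.4 and 26.8 CPM uninjured and at 27.1, 21.3 and 27.1 CPM injured. In MSC the values were 21.6, 26.2 and 22.0 CPM uninjured and 23.9, 22.7 and 18.9 CPM injured, and in MuSC 21.3, 31.5 and 26.3 CPM and 18.7, 20.7 and 25.2 CPM. Yap1 thus sat in a narrow band in these 18 libraries, and the conditions overlapped in each population. CD45+ cells held 5 counts in the 3 uninjured libraries together and 3 in the injured ones. The log2 fold change after injury was -0.14 in CD31+ cells, with a 95% interval of -0.66 to 0.37, -0.09 (-0.61 to 0.43) in MSC and -0.28 (-0.80 to 0.24) in MuSC. Adjusted p by edgeR's quasi-likelihood test with Benjamini-Hochberg adjustment, the test used throughout, was 0.73, 0.82 and 0.405.

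Wwtr1 encodes TAZ, the paralog of YAP. It was at 156, 154 and 138 CPM in uninjured and 147, 162 and 164 CPM in injured CD31+ cells. Uninjured MSC had 38.2, 48.4 and 57.3 CPM and injured MSC 66.1, 56.4 and 67.9 CPM. MuSC had 42.6, 56.6 and 42.2 CPM uninjured and 64.3, 65.4 and 60.5 CPM injured. CD31+ cells were the highest in either condition, and uninjured CD31+ cells exceeded uninjured MSC by 1.64 ± 0.19 (SE) on the log2 scale and MuSC by 1.67 ± 0.19 (adjusted p = 1.29e-07 and 9e-08). After injury the log2 fold change was 0.07 in CD31+ cells, 0.41 ± 0.19 in MSC and 0.44 ± 0.19 in MuSC, and none passed (adjusted p = 0.818, 0.0897 and 0.0756). The MuSC libraries did not overlap between conditions, and those of MSC did. In MSC and in MuSC the test passed with limma voom (adjusted p = 0.0201 and 0.0164), so the side of the threshold depends on the method.

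In CD45+ cells Wwtr1 was at 1.19, 0.868 and 0.286 CPM uninjured and at 1.01, 2.21 and 4.20 CPM injured. This was 9 counts against 31, and the libraries of both conditions overlapped. The fitted rise of 1.61 ± 0.49 on the log2 scale passed (adjusted p = 0.0128), but the call was lost without uninjured replicate 3 (0.0623), without injured replicate 3 (0.194) and with limma voom (0.113). Injured replicate 3 also had the highest sum of stromal markers among the injured CD45+ libraries, 314 CPM against 88.7 CPM in the lowest. Whether stromal RNA contributes to the Wwtr1 counts was not tested.

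Levels of different genes were set beside each other per kilobase of all annotated exons of a gene. Which transcripts were in use and how reads covered them was not tested, so these comparisons are approximate. On this scale Wwtr1 exceeded Yap1 in each of the 18 libraries outside CD45+ cells. The ratio of both levels was 9.98 to 10.9 in uninjured CD31+ cells, 3.42 to 5.05 in uninjured MSC and 3.11 to 3.87 in uninjured MuSC. It was 10.5 to 14.7, 4.81 to 6.97 and 4.65 to 6.64 in the injured libraries of the same populations. The libraries of both conditions thus overlapped in CD31+ cells and MSC and were apart in MuSC.

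TEAD proteins bind DNA and need YAP, TAZ or another cofactor to activate transcription. Tead1 was at 29.8, 30.5 and 16.5 CPM in uninjured and 26.8, 31.0 and 28.3 CPM in injured CD31+ cells. In MSC it went from 28.3, 26.7 and 25.8 CPM to 47.9, 43.6 and 47.4 CPM. In MuSC it was at 62.9, 66.8 and 59.5 CPM uninjured and at 53.0, 48.7 and 51.1 CPM injured. All injured MSC libraries lay above all uninjured ones, while the injured MuSC libraries lay below. The rise in MSC was 0.78 ± 0.23 on the log2 scale (adjusted p = 0.00749). The change of -0.31 ± 0.22 in MuSC and that of 0.16 ± 0.23 in CD31+ cells did not pass (0.294 and 0.673). The responses of MSC and MuSC differed by 1.09 ± 0.32 (adjusted p = 0.0342), and leaving out any 1 of the 6 MuSC libraries or injured MSC replicate 3 ended that call (0.0542 to 0.079). Among uninjured cells, the MSC level of Tead1 minus the MuSC level was -1.23 and the CD31+ level minus the MuSC level was -1.29 on the log2 scale, so MuSC were the highest (adjusted p = 0.000115 and 5.15e-05). CD45+ cells held 9 counts uninjured and 6 injured.

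Tead4 had its highest level in CD31+ cells. Uninjured CD31+ cells had 50.6, 40.7 and 34.5 CPM and injured ones 66.3, 90.6 and 78.1 CPM, with no overlap, but the difference of 0.90 ± 0.39 on the log2 scale did not pass (adjusted p = 0.105). It passed with limma voom (0.00367), without the filter on low counts (0.00356) and in a fit of the CD31+ libraries alone (0.00146). Uninjured CD31+ cells exceeded MuSC by 4.77 ± 0.55 and MSC by 6.08 ± 0.60 on the log2 scale (adjusted p = 8.69e-08 and 1.1e-08). In MuSC, Tead4 was at 0.968, 3.73 and 0.589 CPM uninjured and 3.12, 5.14 and 2.47 CPM injured, which overlapped (adjusted p = 0.122). MSC held 9 counts uninjured and 2 injured, and CD45+ cells 3 and 7.

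Tead2 and Tead3 are the other members of the family, and the shares of the 4 genes are given as a description. Tead4 made up 65.9 ± 1.97% (SD, n = 3) of the summed TEAD level per kilobase in uninjured CD31+ cells and 74.5 ± 3.30% in injured ones. Tead1 made up 53.4 ± 5.07% in uninjured and 58.5 ± 6.64% in injured MSC, and Tead2 made up 23.9 ± 3.52% in uninjured MSC. In MuSC the share of Tead1 was 54.7 ± 9.01% uninjured and 38.8 ± 6.34% injured, and that of Tead2 was 26.6 ± 4.52% and 45.1 ± 5.06%. The shares of Tead1 and Tead2 in uninjured MSC and MuSC thus lay within the SD of each other. In the means per kilobase, the largest share in MuSC was that of Tead1 before injury and that of Tead2 after it. Among injured MuSC libraries the highest Tead1 share (46.1%) was above the lowest Tead2 share (40.8%). No change of the leading member is therefore read. The order also rests on the exon lengths used, 13.57 kb for Tead1 and 4.788 kb for Tead2. The Tead2 share of MuSC was apart between conditions, with its lowest value among injured libraries (40.8%) above the highest among uninjured ones (31.9%). Tead2 itself rose in MSC by 1.07 and in MuSC by 0.94 on the log2 scale (adjusted p = 0.0266 and 0.0353). The Tead2 call in MSC was lost without uninjured replicate 1 (0.0618) or injured replicate 1 (0.128), and that in MuSC without replicate 1 or 3 of the uninjured or 1 or 2 of the injured libraries (0.0657 to 0.151). The sum was 17.7 ± 3.66 and 29.2 ± 3.35 CPM per kb in uninjured and injured CD31+ cells and 0.892 ± 0.439 and 1.29 ± 0.216 in CD45+ cells, where 52 and 80 counts of all TEAD genes allow no reading of shares.

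**Figure D3:**
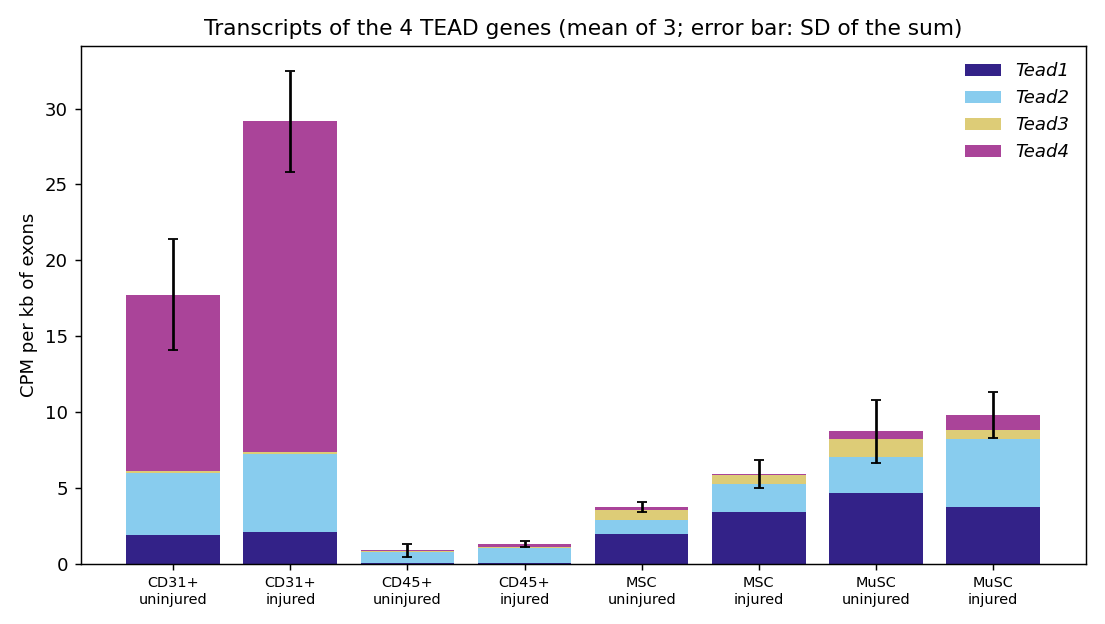
Mean level of Tead1, Tead2, Tead3 and Tead4 in CPM per kilobase of exons, stacked, in the 8 groups; the error bar is the SD of the sum over 3 libraries. Tead4 fills most of the bar in CD31+ cells, and Tead1 and Tead2 fill most of it in MSC and MuSC.

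Lats2 encodes a kinase that phosphorylates YAP and TAZ and is itself a known target of YAP. It was the 1 member with a level in CD45+ cells near that of the other populations: 59.8, 65.1 and 60.1 CPM uninjured and 52.0, 51.9 and 45.8 CPM injured. CD31+ cells had 106, 106 and 159 CPM uninjured and 113, 99.9 and 98.6 CPM injured, and MSC had 52.6, 63.2 and 50.2 CPM and 42.6, 44.3 and 47.1 CPM. In MuSC it went from 62.0, 79.7 and 65.6 CPM to 43.1, 38.5 and 28.7 CPM. Every injured MuSC library was below every uninjured one, and Lats2 fell by 0.91 ± 0.17 on the log2 scale (adjusted p = 0.000114). The changes of -0.25 in CD31+ cells, -0.30 in CD45+ cells and -0.31 in MSC did not pass (adjusted p = 0.292, 0.171 and 0.14), and the responses were not shown to differ between populations (F test on 3 degrees of freedom, adjusted p = 0.074, below 0.05 in 14 of 31 alternatives, the lowest 0.00825). Lats2 shares 2955 exonic bases with Gm49361, a gene model on the same strand, and how reads there were assigned is not given in the sources used here. Uninjured CD31+ cells exceeded CD45+ cells by 1.00, MSC by 1.16 and MuSC by 0.84 on the log2 scale, each past the threshold. In pooled cells, a fall in the number of expressing cells and less RNA per cell cannot be told apart.

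Amotl2 encodes a junctional protein of the angiomotin family that binds YAP and holds it in the cytoplasm, and it too is a known YAP target. In MuSC it went from 70.5, 54.2 and 90.3 CPM to 34.5, 38.2 and 31.8 CPM, without overlap, and fell by 1.05 ± 0.23 on the log2 scale (adjusted p = 0.000898). In MSC it was at 65.0, 71.9 and 72.4 CPM uninjured and at 81.1, 77.9 and 85.4 CPM injured. In CD31+ cells it was at 82.0, 87.8 and 89.6 CPM uninjured and at 52.3, 66.0 and 63.2 CPM injured. Both populations showed no overlap between conditions, upward in MSC and downward in CD31+ cells, and neither passed (log2 fold change 0.22 and -0.52, adjusted p = 0.459 and 0.11). The CD31+ difference passed with DESeq2 (0.00281) and with limma voom (0.0142). The response of MSC exceeded that of MuSC by 1.27 ± 0.33 (adjusted p = 0.0154), a call lost without uninjured MuSC replicate 3 (0.0623). CD45+ cells held 37 and 27 counts. The stromal and the smooth muscle and pericyte sums in MuSC, given above, were lower after injury as Lats2 and Amotl2 were, and their part in the falls of these 2 genes was not tested.

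Ajuba encodes a LIM-domain protein that restrains LATS kinases when junctions are under tension. In CD31+ cells it was at 12.8, 13.3 and 7.07 CPM uninjured and at 20.0, 20.8 and 23.97 CPM injured. In MSC it was at 4.86, 5.38 and 2.89 CPM and at 9.37, 12.8 and 7.73 CPM. Neither population overlapped between conditions, yet the log2 differences of 0.96 ± 0.46 and 1.18 ± 0.50 did not pass (adjusted p = 0.144 and 0.0633). In fits restricted to the libraries of 1 population they passed, with adjusted p = 0.0187 in CD31+ cells and 0.00632 in MSC. MuSC had 26.3, 34.6 and 15.3 CPM uninjured and 27.2, 23.8 and 17.4 CPM injured, the highest uninjured mean of the 4 populations (adjusted p = 0.000244 against MSC and 0.0393 against CD31+ cells). The latter call was lost without uninjured CD31+ replicate 3 (0.142) and without uninjured MuSC replicate 1 (0.0836) or 2 (0.153). CD45+ values for Ajuba spread from 0.237 to 6.58 CPM in uninjured libraries and were at 0.505 to 3.19 CPM in injured ones.

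Ankrd1 encodes a stress-responsive protein with ankyrin repeats that is found in the sarcomere and the nucleus of striated muscle. In MuSC it was at 65.1, 87.1 and 76.4 CPM uninjured and at 397, 218 and 294 CPM injured. In CD31+ cells it had 1 count in the 3 uninjured libraries together and 836 counts in the injured ones, at 30.3, 80.7 and 35.4 CPM. MSC had 0 counts uninjured and 3, 1 and 1 counts in the injured libraries. Ankrd1 was thus present in resting MuSC, at 1 count in resting CD31+ cells and abundant in both after injury. CD45+ cells had 0 counts in all 6 libraries, which allows up to 0.128 CPM. Over the uninjured MSC libraries the same limit was 0.201 CPM. MuSC rose by 1.99 ± 0.31 on the log2 scale (adjusted p = 0.000117), and CD31+ cells passed at 3.47e-07 with a ratio of CPM of 542. The exact 95% interval of that ratio, for counting error only, was 97.0 to 21430, since its lower end rests on 1 count.

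The fitted response of Ankrd1 in CD31+ cells exceeded that in MuSC (adjusted p = 0.000246). By level, injured CD31+ cells were not shown to differ from uninjured MuSC (48.8 and 76.2 CPM on average, adjusted p = 0.101), and injured MuSC were the highest of the 8 groups. Because Ankrd1 is also a transcript of striated muscle fibers, fiber transcripts were set beside it. The summed fiber markers were at 338 to 375 CPM in uninjured and 148 to 180 CPM in injured MuSC, and at 106 to 142 CPM in uninjured and 35.4 to 80.3 CPM in injured CD31+ cells. Uninjured MSC had 133 to 382 CPM of fiber markers. The summed satellite cell markers in CD31+ cells were at 47.7 to 55.1 CPM uninjured and at 28.1 to 50.8 CPM injured. Of the 7 genes of that list, which include Vcam1, 2 to 3 had counts in an uninjured CD31+ library and 4 to 6 in an injured one. The part of each gene in this sum was not tested. The leukocyte sum was 353 CPM in injured CD31+ replicate 1, where Ankrd1 was at 30.3 CPM. The part of RNA from fibers, satellite cells or leukocytes in the Ankrd1 values was not tested.

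Cyr61 encodes a secreted matrix-bound protein of the CCN family that binds integrins and is an immediate early target of YAP. In CD31+ cells it went from 181, 142 and 309 CPM to 1243, 1553 and 836 CPM. In MSC it went from 211, 185 and 233 CPM to 867, 492 and 614 CPM. In MuSC it went from 185, 137 and 145 CPM to 1025, 970 and 908 CPM. Each of these 9 injured libraries lay above each uninjured library of the 3 populations. The rise was 2.52 ± 0.37 on the log2 scale in CD31+ cells, 1.65 ± 0.36 in MSC and 2.63 ± 0.37 in MuSC (adjusted p = 5.63e-05, 0.00121 and 1.91e-05). CD45+ cells had 2.61, 0.868 and 4.58 CPM uninjured and 1.26, 8.33 and 2.34 CPM injured, which overlapped (adjusted p = 0.564).

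Whether Cyr61 rose by different amounts was not settled by the F test over the 4 populations (adjusted p = 0.102, below 0.05 in 3 of 31 alternatives). The response of CD31+ cells minus that of MSC was 0.87 (95% interval -0.18 to 1.92), that of CD31+ cells minus MuSC -0.11 (-1.16 to 0.94), and that of MSC minus MuSC -0.98 (-2.03 to 0.07). Each of these intervals of Cyr61 includes 0 and extends to almost 1 or more on the log2 scale.

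Ctgf encodes another secreted CCN protein, tied to fibrosis and matrix production. In MSC it went from 16.9, 12.1 and 20.0 CPM to 44.3, 39.5 and 42.6 CPM, and in MuSC from 5.23, 7.46 and 6.87 CPM to 11.0, 11.2 and 13.8 CPM. In CD31+ cells it was at 11.7, 7.34 and 9.43 CPM uninjured and at 7.38, 7.37 and 5.24 CPM injured. Conditions were apart in MSC and MuSC and overlapped in CD31+ cells. Ctgf rose by 1.36 ± 0.26 in MSC and by 0.89 ± 0.29 in MuSC on the log2 scale (adjusted p = 0.000243 and 0.0168), and the change of -0.52 ± 0.29 in CD31+ cells did not pass (0.215). The MuSC call was lost without uninjured replicate 1 (0.0864) or injured replicate 3 (0.0676). CD45+ cells had 1 count uninjured and 0 injured. The Ctgf gene overlaps an antisense transcript, Gm15270, over 665 exonic bases, and the libraries do not mark the strand, so reads from the shared stretch cannot be assigned to either.

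The responses of Ctgf differed between populations (F test, adjusted p = 0.00263). The response of CD31+ cells was below that of MSC by 1.88 ± 0.39 (fitted -1.88, adjusted p = 0.00248) and below that of MuSC by 1.41 ± 0.41 (fitted -1.41, adjusted p = 0.0248) on the log2 scale. The latter call was lost without the filter on low counts (0.105) and without uninjured CD31+ replicate 1 (0.128), injured CD31+ replicate 3 (0.0682), uninjured MuSC replicate 1 (0.0755) or injured MuSC replicate 3 (0.0681). Per kilobase, Cyr61 was the most abundant of the 3 targets after injury, at 600 ± 178 CPM per kb in CD31+ cells, 326 ± 94.7 in MSC and 479 ± 29.0 in MuSC. Ankrd1 was at 16.9 ± 9.62, 0.0883 ± 0.0494 and 105 ± 31.1 CPM per kb in the same groups and Ctgf at 2.33 ± 0.432, 14.7 ± 0.862 and 4.20 ± 0.533. Cyr61 was thus shared by the 3 populations, while Ankrd1 was second in CD31+ cells and MuSC and Ctgf was second in MSC.

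Over all 10 genes, the F test of unequal response passed for Tead1, Amotl2, Ankrd1 and Ctgf, 4 of 10, against 35.9% of all genes. Of 60 pairwise differences in response, 6 passed, against 16.5% over all genes and pairs. One of them, Wwtr1 in CD31+ against CD45+ cells (-1.54 ± 0.52, adjusted p = 0.0456), rests on the few CD45+ counts given above and was lost in most alternatives. Among uninjured cells, 38 of 60 pairwise differences passed, against 50.1%, and among injured cells 47 of 60, against 53.1%. The libraries of both conditions did not overlap for 5 of 10 members in CD31+ cells, 1 in CD45+ cells, 7 in MSC and 7 in MuSC, against 37.3%, 43%, 55% and 49.5% of all genes. Before injury 9 of the 10 genes were higher in CD31+ than in CD45+ cells, against 25.5% of all genes, and Ankrd1, at 1 and 0 counts, did not.

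In the order of the 8 group means, the break that most members shared was between CD45+ cells and the rest. For Yap1, Wwtr1, Tead1, Amotl2, Cyr61 and Ctgf, the lowest group outside CD45+ cells differed from the higher CD45+ group (adjusted p between 2.02e-12 and 3.22e-08). Uninjured and injured CD45+ cells passed against each other for Wwtr1 alone. Yap1 had no step that passed among the other 6 groups. Wwtr1 had 1, below both CD31+ groups (adjusted p = 4.46e-06). Tead4 had 1, below both CD31+ groups (4.45e-07), and Lats2 had 1, between injured CD31+ cells and uninjured MuSC (0.00369). Tead1 had a step between injured MSC and injured CD31+ cells (0.0128), Amotl2 between injured CD31+ cells and injured MuSC (0.00567) and Ctgf below injured MSC (0.000243), while Ajuba had none between neighbours. Cyr61 had its step between injured MSC and uninjured CD31+ cells (0.000727), so the 3 injured groups formed the upper end and the 3 uninjured ones, with no step that passed among them, came next.

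The genes whose log2 CPM followed each member most closely over the 24 libraries were mostly those with the same contrast between populations, and a Pearson r over these libraries largely reflects the 4 populations. Closest to Yap1 were Grb10 (r = 0.988), Nfib and Tmem98, to Wwtr1 Tspan6 (0.978), S100a16 and Nckap1, and to Tead1 Rbfox2 (0.974), Laptm4b and Zfp13. Tead4 was followed by Mmp15 (0.953), Dhh and Podxl, Lats2 by Fam89a (0.910), Gpr182 and Tecpr1, and Amotl2 by Npdc1 (0.971), Ltbp4 and Hspg2. Ajuba had the loosest matches, Suclg2 (0.874), Scrn2 and AC131187.2, a gene model known by a clone name. Ankrd1 was followed by Gal (0.959), Pdgfa and Ttc9, Cyr61 by Spry4 (0.966), Cops7a and Cald1, and Ctgf by Pcdhgc5 (0.960), Dnm3os and Serpinh1.

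The other genes of the pathway were read from lists by role. Of 14 tested genes for Hippo kinases and scaffolds, CD31+ cells had 1 rise and 0 falls, CD45+ cells 1 and 4, MSC 0 and 5, and MuSC 2 and 1. The 5 falls in MSC became 1 without uninjured replicate 2 or injured replicate 1, 2 without uninjured replicate 1 or 3 or injured replicate 3, and 3 without injured replicate 2. The list medians were 0.10, -0.28, -0.46 and -0.15 on the log2 scale, beside -0.04, -0.12, -0.22 and -0.04 over all genes. Wwc1 was not tested. Mob1a, an activator of LATS kinases, rose in CD31+ cells from 154 ± 5.83 to 206 ± 18.1 CPM and in MuSC from 85.5 ± 7.65 to 129 ± 6.68 CPM (adjusted p = 0.00613 and 0.000155). In MSC, Taok2, a kinase upstream of the cascade, fell by 0.80 and Frmd6, a scaffold, fell by 0.76 on the log2 scale (adjusted p = 0.00116 and 0.00257). Taok2 passed there whichever library was left out, and the Frmd6 call was lost without uninjured replicate 1 (0.0549) or 2 (0.0541) or injured replicate 1 (0.0946). In MuSC, Nf2, the scaffold also called merlin, rose from 42.9 ± 4.32 to 63.0 ± 2.01 CPM (0.0182), and Taok2 fell by 0.50 on the log2 scale (0.0373). The Nf2 call was lost without uninjured MuSC replicate 3 (0.0758) and the Taok2 call without replicate 2 or 3 of the uninjured or 1 or 2 of the injured MuSC libraries (0.0832 to 0.261). Without injured CD31+ replicate 2, Limd1 fell in CD31+ cells (0.0368). In CD45+ cells Limd1, a LIM protein related to Ajuba, fell from 131 ± 13.2 to 72.5 ± 5.38 CPM (0.000282).

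Of 11 partners of YAP and TEAD, CD31+ cells had 1 rise and 0 falls, CD45+ cells 2 and 1, MSC 5 and 3, and MuSC 4 and 3. Rises and falls of all genes, in the same order, were 14.1% and 9.3%, 16% and 18.5%, 18.3% and 23.6%, and 21.4% and 17.5%. The list medians were 0.27, 0.40, -0.21 and -0.11 on the log2 scale. The 1 fall in CD45+ cells, of Amotl1, was lost without replicate 1 or 3 of either condition (0.0586 to 0.235). Fosl1, an AP-1 subunit that shares many enhancers with YAP and TEAD, rose in all 4 populations: from 5.51 ± 2.83 to 96.2 ± 26.1 CPM in CD31+ cells, 0.446 ± 0.148 to 7.95 ± 6.23 in CD45+ cells, 1.52 ± 0.786 to 85.3 ± 8.86 in MSC and 1.10 ± 1.40 to 210 ± 6.67 in MuSC. Adjusted p for Fosl1 was 4.23e-07, 0.000479, 1.16e-08 and 5.65e-10. Runx1, which encodes a transcription factor that binds YAP, rose in MSC from 4.73 ± 1.21 to 43.4 ± 13.9 CPM and in MuSC from 32.6 ± 7.13 to 112 ± 6.23 CPM (1.38e-09 and 8.98e-07). Amotl1, a paralog of Amotl2, fell in MSC from 250 ± 16.2 to 105 ± 2.16 CPM (6.68e-06), where Amotl2 did not pass. Vgll4, a cofactor that competes with YAP for TEAD, fell in MuSC from 93.6 ± 9.85 to 40.1 ± 3.02 CPM (2e-06).

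Of 16 tested published YAP target genes other than the members, CD31+ cells had 1 rise and 4 falls, CD45+ cells 4 and 4, MSC 0 and 8, and MuSC 6 and 7. Rises and falls of all genes, in the same order, were 14.1% and 9.3%, 16% and 18.5%, 18.3% and 23.6%, and 21.4% and 17.5%. On leaving out single libraries the 8 falls in MSC became 5 to 6, with 5 without injured replicate 1, and the 6 rises in MuSC became 3 without uninjured replicate 3 or injured replicate 2. The 1 rise in CD31+ cells, of Asap1, was lost without replicate 2 or 3 of the uninjured or 1 or 3 of the injured libraries (0.0532 to 0.167), and the 4 rises in CD45+ cells became 2 without replicate 2 of either condition. Without uninjured MSC replicate 1, Nuak2 rose in MSC (0.0269). The medians were -0.27, -0.11, -0.71 and -0.31 on the log2 scale, below those of all genes except in CD45+ cells, and Foxf2 was not tested. Axl, a receptor tyrosine kinase, rose in MuSC from 61.6 ± 9.09 to 313 ± 16.8 CPM (adjusted p = 2.55e-09) and fell in CD31+ cells from 35.5 ± 8.80 to 15.6 ± 2.44 CPM (0.000167). It also fell in CD45+ cells, from 95.8 ± 12.2 to 20.7 ± 7.72 CPM (3.68e-08). Its fall in MSC was a call lost without uninjured replicate 3 (0.0543) or injured replicate 1 (0.0713). Tgfb2, a growth factor, fell in CD31+ cells from 37.7 ± 7.76 to 13.5 ± 4.45 CPM, in MSC from 130 ± 16.5 to 29.7 ± 3.42 CPM and in MuSC from 117 ± 14.3 to 52.3 ± 12.4 CPM (9.23e-05, 1.29e-07 and 0.000275). Myof, a membrane repair protein, rose in MuSC from 2.33 ± 0.658 to 14.9 ± 3.46 CPM (2.74e-07).

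A list of the transcription factor SRF, its coactivators of the MRTF family (Mkl1, Mkl2) and cytoskeletal genes they drive, which also respond to tension, was read in the same way. In CD31+ cells 11 of 16 rose and 1 fell, against 14.1% and 9.3% of all genes, with a median of 0.97, and Cnn1 was not tested. The rises and falls were 5 and 3 in CD45+ cells, 6 and 3 in MSC, and 8 and 2 in MuSC. Those of all genes there were 16% and 18.5%, 18.3% and 23.6%, and 21.4% and 17.5%. The list medians there were 0.02, 0.19 and 0.49. These counts include the regulators: Srf was among the rises and Mkl2 the 1 fall in CD31+ cells, Mkl1 was among the falls in CD45+ cells and Mkl2 among those in MSC, and in MuSC Mkl1 was among the rises and Mkl2 among the falls. The 3 falls in CD45+ cells became 1 without injured replicate 3, and the 2 in MuSC became 1 without any library but uninjured replicate 3. In CD31+ cells Actg1, a cytoplasmic actin, went from 522 ± 42.7 to 1799 ± 229 CPM (adjusted p = 1.22e-09) and Tpm4, a tropomyosin, from 979 ± 46.9 to 2307 ± 366 CPM (7.69e-07). Tagln2, an actin-binding protein, rose in MuSC from 237 ± 32.9 to 1021 ± 112 CPM (2.9e-11). The summed markers of smooth muscle and pericytes were at 586 to 827 CPM in uninjured and 338 to 515 CPM in injured CD31+ cells. Acta2 belongs to both these markers and the SRF and MRTF list. The part of smooth muscle and pericytes in the values of the list was not tested.

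Of further genes listed beside the targets, 3 CCN genes and 3 genes with Ankrd names (Ankrd2, Ankrd23 and Ankrd37) were tested, and Wisp3 was not. Wisp1, also called Ccn4, rose in MSC from 13.8 ± 0.443 to 119 ± 30.0 CPM (adjusted p = 7.82e-06) and Nov, also called Ccn3, fell there from 224 ± 46.1 to 18.2 ± 8.06 CPM (2.39e-06), while Ctgf rose. These 3 Ankrd genes did not share the calls of Ankrd1 in CD31+ cells and MuSC. In CD31+ cells Ankrd23 had 3.52 ± 0.372 CPM before and 6.53 ± 1.89 CPM after injury, a log2 difference of 0.89 that did not pass (0.0783) but passed without injured replicate 2 (0.0498), and in MuSC it fell from 12.3 ± 0.673 to 4.69 ± 0.713 CPM (0.00218). Ankrd37 fell in CD31+ cells from 18.4 ± 2.62 to 8.66 ± 2.42 CPM (0.0269), a call lost without replicate 1 or 3 of the uninjured or 2 or 3 of the injured libraries (0.0585 to 0.133), and did not pass in MuSC (0.473). Ankrd2 passed in neither (0.954 and 0.325). The CD31+ values of Ankrd23 and those of Ankrd2 were named after they were seen.

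**Figure D4:**
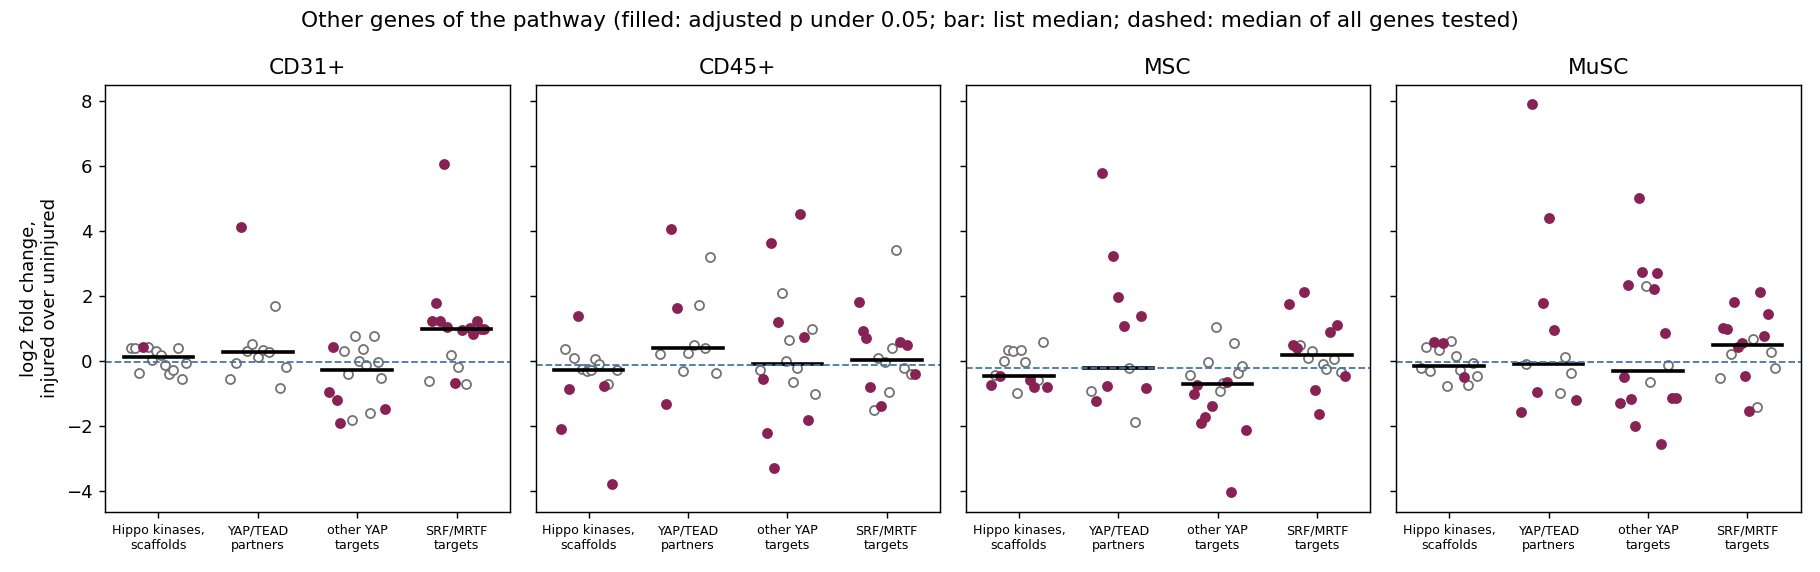
Log2 fold change after injury of each tested gene in 4 lists of pathway genes, by population; filled points passed at an adjusted p below 0.05, the bar is the median of the list and the dashed line the median of all genes tested. The median of the SRF and MRTF list sits above the dashed line in all 4 populations, and furthest above it in CD31+ cells. Of its 16 genes, 11 are past the threshold upward in CD31+ cells (14.1% of all genes) and 8 in MuSC (21.4%). The list of other YAP targets has 8 of 16 past it downward in MSC (5 to 6 on leaving out single libraries), against 23.6% of all genes.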

How the data were processed

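The authors deposited unnormalized counts of reads for each symbol; STAR 2.5.4, featureCounts and mm10 are named in the submitters' processing notes, and the treatment of multi-mapping reads is not given in the sources used here. Per the labels' protocols, cDNA primed with oligo(dT) went through PCR and Nextera XT, which keeps no strand. Molecular identifiers are not mentioned, so PCR copies count as reads. The exact interval of the Ankrd1 count ratio covers counting error only. The intervals of fold changes and of differences in response rest on the SE of the fit, which includes the spread between libraries.

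The counts were fitted in edgeR 4.0.16 (R 4.3.3): filterByExpr over the 8 groups, TMM scaling, 1 mean per group over all 24 libraries (16 residual degrees of freedom), robust quasi-likelihood test, Benjamini-Hochberg adjustment over the 16263 genes within each comparison and a threshold of 0.05. SE was computed as the size of the log2 fold change over the root of F. CPM used TMM-scaled totals. Exon lengths and overlaps were taken from the GENCODE vM21 annotation (GRCm38) and promoters from RefSeq. The script was tested on simulated data. Alternatives were RLE scaling, no filter, DESeq2 1.42.0, limma 3.58.1 voom, non-robust fits, a replicate block, single-population fits and leaving out each library.

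All 10 members were named in each group. From each pathway list, up to 4 genes per injury comparison that passed were eligible, by smallest adjusted p. For likeness, the 3 genes with the highest r were named, leaving out gene models with Gm or Rik names (clone names such as AC131187.2 stayed in). Tead2, Tead3, Acta2, Notch3, Myh11 and genes named for calls that moved on leaving out a library were added after their values were seen. The members and lists were chosen with earlier results of these data known. The labels do not say that libraries with the same number share an animal.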

Additional observations from a re-analysis of the deposited data

Results flagged for a closer look

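The injury response of 4 members differed between the 4 populations by the F test of the difference itself. For Ankrd1 (adjusted p = 0.000471), CD31+ cells went from 1 to 836 counts and MuSC from 76.2 ± 11.0 to 303 ± 89.8 CPM (SD, n = 3), while MSC ended at 5 counts and CD45+ cells at 0. For Ctgf (0.00263), MSC went from 16.3 ± 3.98 to 42.1 ± 2.47 CPM and CD31+ cells from 9.49 ± 2.17 to 6.67 ± 1.24 CPM. For Amotl2 (0.0233), MSC went from 69.8 ± 4.13 to 81.5 ± 3.75 CPM and MuSC from 71.7 ± 18.1 to 34.8 ± 3.22 CPM. For Tead1 (0.0369), MSC went from 26.9 ± 1.30 to 46.3 ± 2.38 CPM and MuSC from 63.1 ± 3.64 to 50.9 ± 2.16 CPM. Over 31 alternatives the adjusted p of Ankrd1 was at most 0.00828 and that of Ctgf at most 0.01003. It reached 0.06645 for Amotl2, above the threshold in 3 alternatives, and 0.07735 for Tead1, above it in 9.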

How the results depend on the processing

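Few replicates and, in CD45+ cells, few counts limit these results. Of the members, the number that rose in CD31+ cells (2) was 4 without the filter on low counts and 4 in a fit of the CD31+ libraries alone, and the number that fell (0) was 1 with RLE scaling, DESeq2, limma voom and that fit, each time Amotl2. The 1 rise in CD45+ cells became 0 with limma voom and with CD45+ libraries alone; leaving out single libraries gave 0 to 1 rises and 0 to 1 falls. In MSC the 3 rises became 5 without the filter and 6 with MSC libraries alone. In MuSC the 3 rises became 5 without the filter and ranged from 2 to 5 on leaving out single libraries. Among all genes, the 1512 that fell in CD31+ cells were 1007 without the filter and 2420 with DESeq2, and the 3831 that fell in MSC ranged from 2258 (without injured replicate 1) to 3389 on leaving out single libraries. Over the pathway lists in MSC, with 14, 11, 16, 16, 3 and 3 genes tested, 22 genes fell and 12 rose. Of all genes tested there, 23.6% fell and 18.3% rose. The 22 falls became 14 without the filter. On leaving out single libraries they became 14 to 18, with 14 without uninjured replicate 1 or 2 or injured replicate 1. The 12 rises became 19 with MSC libraries alone. The 4 members whose response differed between populations were 8 with DESeq2 and 2 to 6 on leaving out single libraries, with 2 without injured MSC replicate 3 or replicate 3 of either MuSC group. The 6 pairwise calls were 14 with DESeq2, 10 with limma voom and 3 to 14 on leaving out single libraries, with 3 without uninjured MuSC replicate 1 or 3 or injured MuSC replicate 3, and 12 and 14 without injured CD45+ replicates 1 and 2. The cause of these shifts was not tested.

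Log2 fold changes that changed sign did not pass in either setting. They were Wwtr1 in CD31+ cells (-0.036 with RLE scaling and -0.037 with DESeq2), Yap1 in CD31+ cells (0.0076 without the filter) and Yap1 in MSC (0.11 without the filter, 0.037 with MSC libraries alone). Leaving out single libraries gave -0.11 to 0.16 for Yap1 in MSC, -0.065 to 0.29 for Tead1 in CD31+ cells, -0.33 to 0.27 for the Cyr61 response of CD31+ cells minus MuSC and -0.40 to 0.13 for Ajuba in MuSC. In CD45+ cells it gave -1.12 to 0.71 for Ajuba, -0.97 to 4.70 for Tead4 and -0.51 to 1.18 for Cyr61.

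Replicate numbers are shared between groups. After removing group means, same-numbered libraries of the 2 conditions of a population correlated at -0.083 to 0.072 over 12 pairs, 3 of which matched their own number best among 3 libraries. Those of 2 populations in 1 condition correlated at -0.014 to 0.133 over 36 pairs, 25 of which matched their own number best. Of the 36 pairs that differed in population and condition, 6 did. Whether libraries of 1 condition with the same number share an animal or a batch was not tested, and the main fit treats them as independent. With the replicate block, the members called after injury stayed at 2, 1, 3 and 3 rises and 0, 0, 0 and 2 falls, 4 responses differed and 5 pairwise response calls passed; all genes gave 2247 rises and 1472 falls in CD31+ cells. A block within condition, chosen after seeing the data, gave 4, 5 and, among uninjured pairs, 36 calls instead of 38.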
